A study of Homo sapiens with 2 samples.

Results

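Lysosomal and autophagy genes are 41 genes that encode the acid hydrolases of the lysosome, its membrane proteins, its proton pump, their transcription factors and the proteins that build and load autophagosomes. They were listed by function, with earlier results of these data known. Of them, 40, among 19775 genes on the arrays, had a probe set annotated to a single gene symbol. The 40 genes had 98 probe sets, and each gene is given by its main probe set, the brightest one when both arrays are averaged. GLB1, the lysosomal beta-galactosidase, was the remaining gene. Its probe set is annotated to GLB1 together with another gene, so it was not analysed here.

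The cells were QGP1, an established human cell line from a pancreatic neuroendocrine tumour. On 1 array were QGP1 cells with high aldehyde dehydrogenase (ALDH) activity, isolated by fluorescence-activated sorting, a property by which stem-like tumour cells are often enriched. On the other array were control QGP1 cells, for which the labels give no sort. Both groups are the same line with no other treatment or genotype in the labels, and each is 1 array of RNA labelled from its 3' end.

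Lysosomes degrade proteins, glycans and lipids with hydrolases that work at an acid pH, which the vacuolar H+-ATPase maintains by pumping protons into the lumen. Autophagy delivers cytoplasm to them in double-membrane vesicles. A kinase complex around ULK1 and a lipid kinase complex around BECN1 start the membrane, the ATG conjugation enzymes attach ATG8 proteins to it, and receptors such as SQSTM1 tether cargo to those ATG8 proteins. TFEB and TFE3 bind a CACGTG-containing element in the promoters of many of these genes, and the kinase mTORC1 holds them in the cytoplasm when amino acids are plentiful.

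Values are RMA levels on the log2 scale, and a difference is ALDH high minus control. With 1 array per group no difference has a replicate check, and no p-value was computed. The only spread at hand is the one between probe sets of a gene. Its pooled SD was 0.18 on the log2 scale over all genes with several probe sets at or above the median level of 5.68, and 0.18 over the members. It covers neither cultures nor sorts. Both arrays had nearly the same median level (5.68 in ALDH high, 5.69 in control). Poly-A control transcripts, which are added to the RNA before labelling, were brighter on the ALDH-high array, with a mean difference of 0.32 (SD 0.07, 24 probe sets). For hybridisation controls that mean was 0.05 (SD 0.04, 18 probe sets). The ratio of the 3' to the 5' signal of ACTB, a sign of RNA integrity, was 1.83 in ALDH high and 1.67 in control, and that of GAPDH 1.14 and 1.15. The part of these measures in the differences below was not tested. All 8 measured neuroendocrine markers were at or above the median level, with a median difference of -0.09. CHGA was at 11.50 against 11.70, and the markers furthest from 0 were INSM1 (0.34, at 11.47 against 11.13) and NCAM1 (-0.30).

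The levels of most lysosomal and autophagy genes were somewhat lower in the ALDH-high cells, and the largest differences were those of WIPI1, CTSS, CTSB and NPC2. Of the 40 genes, 31 were below 0, a share of 77.5%, where 50.3% of all genes were. The median difference was -0.26, a 1.20-fold lower level, against -0.01 for all genes. Because the members were chosen with earlier results of these data known, these contrasts are a description and no independent support. In bulk RNA, fewer cells with a transcript and less of it per cell cannot be told apart. More than 1.5-fold lower were 8 of 40 genes (20.0%), against 4.21% of all genes and 5.52% of the 12529 genes at or above the median level, where all 40 members lay. None of the 40 was more than 1.5-fold higher, where 2.61% of all genes were (3.53% of those at or above the median level). At 2-fold, the threshold in the series description, 2 members, WIPI1 and CTSS, were lower, where 1.23% of all genes and 1.66% of those at or above the median level were. None was 2-fold higher, where 0.465% and 0.607% were.

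The 8 members over 1.5-fold lower were WIPI1, CTSS, CTSB, NPC2, CTSH, CTSZ, GABARAPL1 and CTSL. A second probe set was also past 1.5-fold in 3 of them, CTSB, GABARAPL1 and WIPI1. For CTSH, NPC2 and CTSL there was 1 probe set, and for CTSS and CTSZ the other probe sets were nearer to 0. Without probe sets that can bind more than 1 transcript, 31 members could be measured and 3 of them, CTSB, NPC2 and WIPI1, were over 1.5-fold lower, where 3.95% of all genes were.

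**Figure D1:**
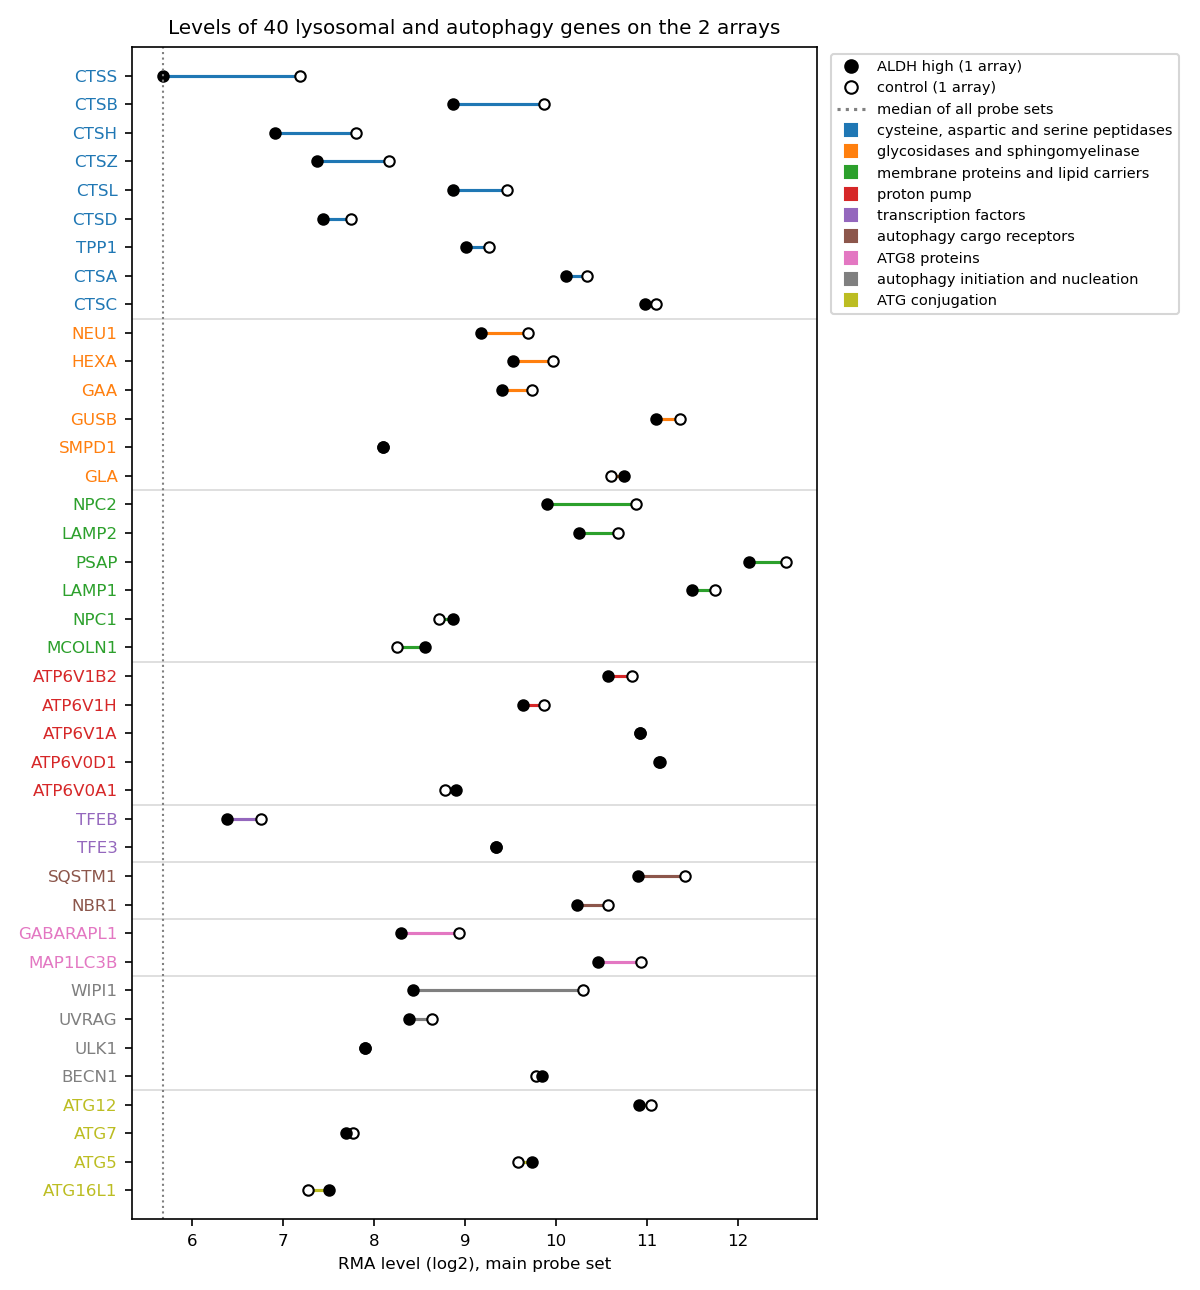
RMA level (log2, main probe set) of each of the 40 measured genes on the ALDH-high array (filled) and the control array (open), 1 array each, with genes grouped and coloured by class and ordered by difference within a class. The filled point lies left of the open one in 31 genes, with the longest bar for WIPI1 (8.43 against 10.30); levels of different genes are not comparable on an array.

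The cathepsins among the members and TPP1, peptidases of the lysosome, were all lower on their main probe sets in the ALDH-high cells. Cathepsins in the list of other acid hydrolases, CTSF (-0.38), CTSK (-0.22), CTSV (-0.09) and CTSO (-0.07), were not past 1.5-fold. All 9 member peptidases lay below 0, where 50.3% of all genes did, and their median was -0.59. Of the 9, 5 (55.6%) were past 1.5-fold lower, against 4.21% of all genes and 5.52% of those at or above the median level. The main probe sets of the 5 past 1.5-fold can each bind more than 1 transcript. Without such probe sets CTSH, CTSL and CTSZ could not be measured. CTSS then stood at -0.14, TPP1 at 0.20 and CTSB at -0.96, the only peptidase still past 1.5-fold. CTSA (-0.23), CTSC (-0.12) and CTSD (-0.31) kept the same differences in that setting. CTSB, a cysteine peptidase, had a level of 8.87 in ALDH high and 9.87 in control, a 1.99-fold lower level just short of 2-fold. Its 5 probe sets ranged from -1.01 to -0.59, so no CTSB probe set overlapped 0. CTSS, a cysteine cathepsin best known from antigen-presenting cells, stood at 5.69 against 7.19, a difference of -1.51 or 2.84-fold. That difference came from 1 of 3 probe sets, since the others, at 5.25 against 5.39 and 3.12 against 3.41, were below the median level. The CTSS level in ALDH high was at the median of the array, where a level cannot be told from background without detection calls.

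CTSH, an aminopeptidase, was 1.85-fold lower on its single probe set (6.91 against 7.80). CTSZ, a carboxypeptidase, was 1.73-fold lower on its main probe set (7.38 against 8.17). Its second probe set was level, at 5.77 against 5.81, so the 2 CTSZ probe sets disagreed and their mean difference was -0.41. CTSL, the endopeptidase that also processes other cathepsins, was at 8.87 against 9.46, a difference of -0.587 that only just passes 1.5-fold (0.585 on the log2 scale).

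The remaining peptidases differed less. CTSD, the main aspartic peptidase of lysosomes, was at 7.44 against 7.75 and CTSA, the serine carboxypeptidase that protects NEU1 and beta-galactosidase, at 10.11 against 10.34. TPP1, a tripeptidyl peptidase, was at 9.01 against 9.26, with its 4 probe sets from -0.25 to 0.20. CTSC, the dipeptidyl peptidase that activates granule serine proteases, was nearest to level at 10.98 against 11.10, and its 4 probe sets ranged from -0.12 to 0.06.

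Of the glycosidases and sphingomyelinase, 4 of 6 measured members lay below 0 and none was past 1.5-fold, with a median of -0.29. NEU1, the sialidase, was at 9.18 against 9.69, a 1.42-fold lower level. HEXA, the alpha chain of hexosaminidase, was 1.36-fold lower on its main probe set (9.53 against 9.96), whereas its other 3 probe sets ranged from -0.01 to 0.09 at lower levels. GAA, the acid alpha-glucosidase that degrades glycogen, was at 9.41 against 9.73, and GUSB, the beta-glucuronidase, at 11.11 against 11.36. SMPD1, the acid sphingomyelinase, was level at 8.10 on both arrays, and GLA, the alpha-galactosidase, was 1.10-fold higher (10.75 against 10.61). Over all 15 measured hydrolases, peptidases included, the median was -0.33, with 13 (86.7%) below 0 and 5 (33.3%) past 1.5-fold lower. Of all genes, 50.3% were below 0 and 4.21% past 1.5-fold lower (5.52% at or above the median level).

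NPC2, the lumenal protein that hands cholesterol to NPC1, was the furthest apart of the membrane proteins and lipid carriers, at 9.90 against 10.88 (1.97-fold lower, single probe set). NPC1, the membrane protein that receives that cholesterol, was 1.11-fold higher (8.87 against 8.72), a difference within the spread between probe sets. LAMP1 and LAMP2, the heavily glycosylated proteins that line the lysosomal membrane, were lower on every probe set. For LAMP1 the 4 differences ran from -0.53 to -0.26, and the main probe set stood at 11.49 against 11.75. For LAMP2 they ran from -0.56 to -0.08, with the main probe set at 10.25 against 10.68. PSAP, the precursor of the saposins that aid sphingolipid hydrolases, was 1.33-fold lower (12.12 against 12.52), with -0.49 on the second probe set. MCOLN1, the lysosomal calcium channel TRPML, was the member with the largest positive difference, at 8.56 against 8.26 (0.30, or 1.23-fold higher). The median of these 6 genes was -0.33, with 4 (66.7%) below 0 and 1 (16.7%) past 1.5-fold lower. Over all genes these shares were 50.3% and 4.21%.

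The proton pump members had a median of 0.00, with 3 of 5 below 0, where 50.3% of all genes were, and none past 1.5-fold. ATP6V1A, the catalytic subunit of the cytosolic domain, stood at 10.92 against 10.93, and ATP6V0D1, of the membrane domain, at 11.14 against 11.13. ATP6V0A1, the membrane subunit that forms the proton path, was at 8.90 against 8.78. ATP6V1B2 was at 10.57 against 10.83 and ATP6V1H, a regulatory subunit, at 9.64 against 9.87. These 5 genes lay between -0.26 and 0.12. The 17 other subunits of the pump, given below, had a median of -0.17, with 13 below 0. Whether the 5 members differ from the hydrolases, whose median was -0.33, could not be tested with 1 array per group, and the classes overlapped in range. The sign of the median of the 5 turned with the way probe sets were combined, from just below 0 on the main probe sets to 0.06 as the median over all probe sets.

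**Figure D2:**
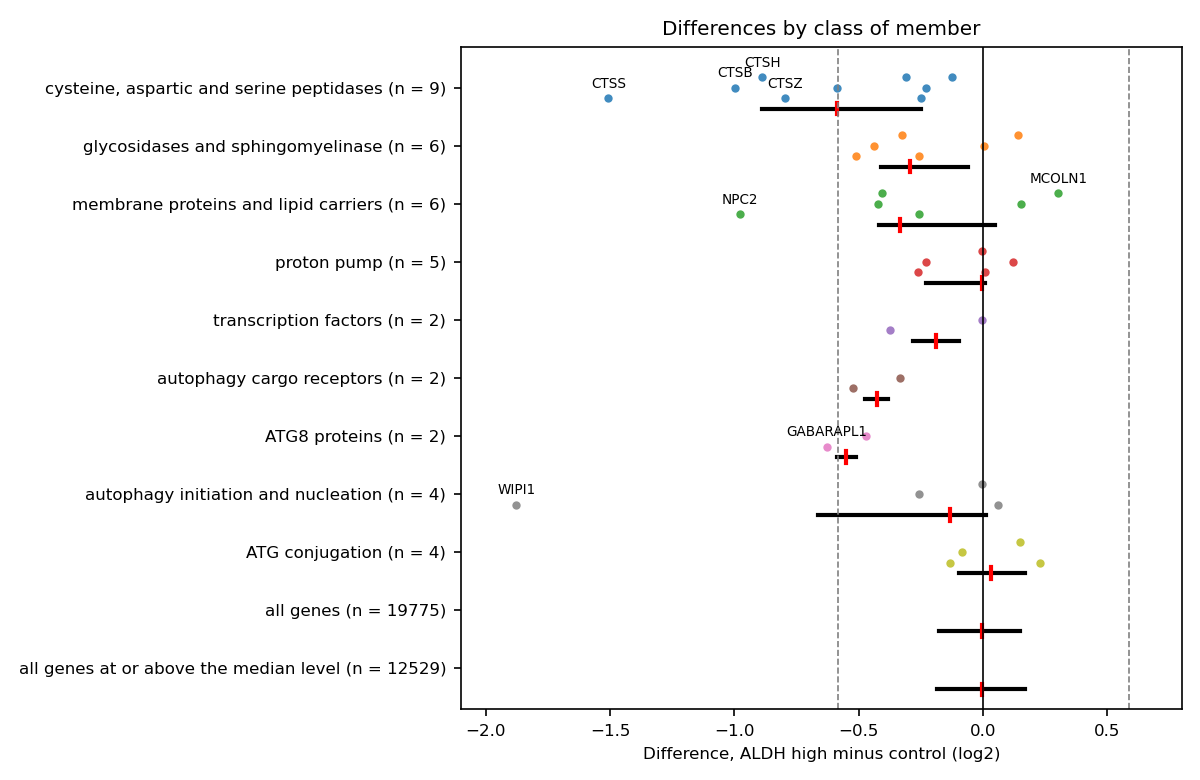
Difference between ALDH high and control (log2) for each measured member, by class, with the class median (red tick) and the middle 50% of the values (black bar), above the same bars for all genes; dashed lines mark 1.5-fold. The peptidase median of -0.59 sits at the 1.5-fold line, the proton pump median at 0.00 and the median of all genes at -0.01.

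WIPI1, a phosphoinositide-binding protein of forming autophagosomes, had the largest difference of all members. Its level was 8.43 in ALDH high and 10.30 in control, a 3.67-fold lower level. The second probe set stood at 8.15 against 9.94, a difference of -1.79, so both probe sets recorded it with an SD of 0.06 between them. Of the 19775 genes, 33 had a lower difference than WIPI1. Of the other members that start or nucleate the membrane none was past 1.5-fold. ULK1, the initiating kinase, was at 7.90 against 7.91, BECN1, the scaffold of the lipid kinase complex, at 9.84 against 9.78, and UVRAG, a partner of BECN1, at 8.38 against 8.64.

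Both ATG8 proteins were lower on both of their probe sets. GABARAPL1 was at 8.30 against 8.93 (1.54-fold lower), and at 7.87 against 8.69 on the second probe set. MAP1LC3B, the LC3 protein used as the standard marker of autophagosomes, was at 10.46 against 10.94 (1.39-fold lower), with 10.15 against 10.57 on the other. All 4 probe sets can bind more than 1 transcript, so they may also read close paralogs.

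The cargo receptors were lower on their brightest probe sets. SQSTM1, also called p62, which links ubiquitinated cargo to ATG8 proteins, was at 10.90 against 11.42 (1.44-fold lower). Its second probe set differed by -0.45, and the 3 others ranged from -0.12 to 0.09, which brought the mean over all 5 to -0.20. NBR1, a receptor of related build, was at 10.24 against 10.57, and its 4 probe sets ranged from -0.33 to 0.06.

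The ATG conjugation genes, whose products lipidate the ATG8 proteins, had a median of 0.03 with none of 4 past 1.5-fold. ATG5 was at 9.74 against 9.59, ATG7, the activating enzyme, at 7.69 against 7.78, and ATG12, the ubiquitin-like protein joined to ATG5, at 10.91 against 11.04. ATG16L1, which places the conjugate on the membrane, was at 7.51 against 7.28 on its main probe set and differed by -0.22 on a dim one. Over all 12 autophagy members the median was -0.20, with 9 (75%) below 0 and 2 (16.7%), WIPI1 and GABARAPL1, past 1.5-fold lower. Over all genes these shares were 50.3% and 4.21%.

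TFEB, the transcription factor of lysosome biogenesis, was at 6.38 against 6.76, a 1.30-fold lower level, and its second probe set at 6.32 against 6.47. TFE3, its relative, was level at 9.34 on both arrays. Levels of these mRNAs do not show where the proteins were in the cell.

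**Figure D3:**
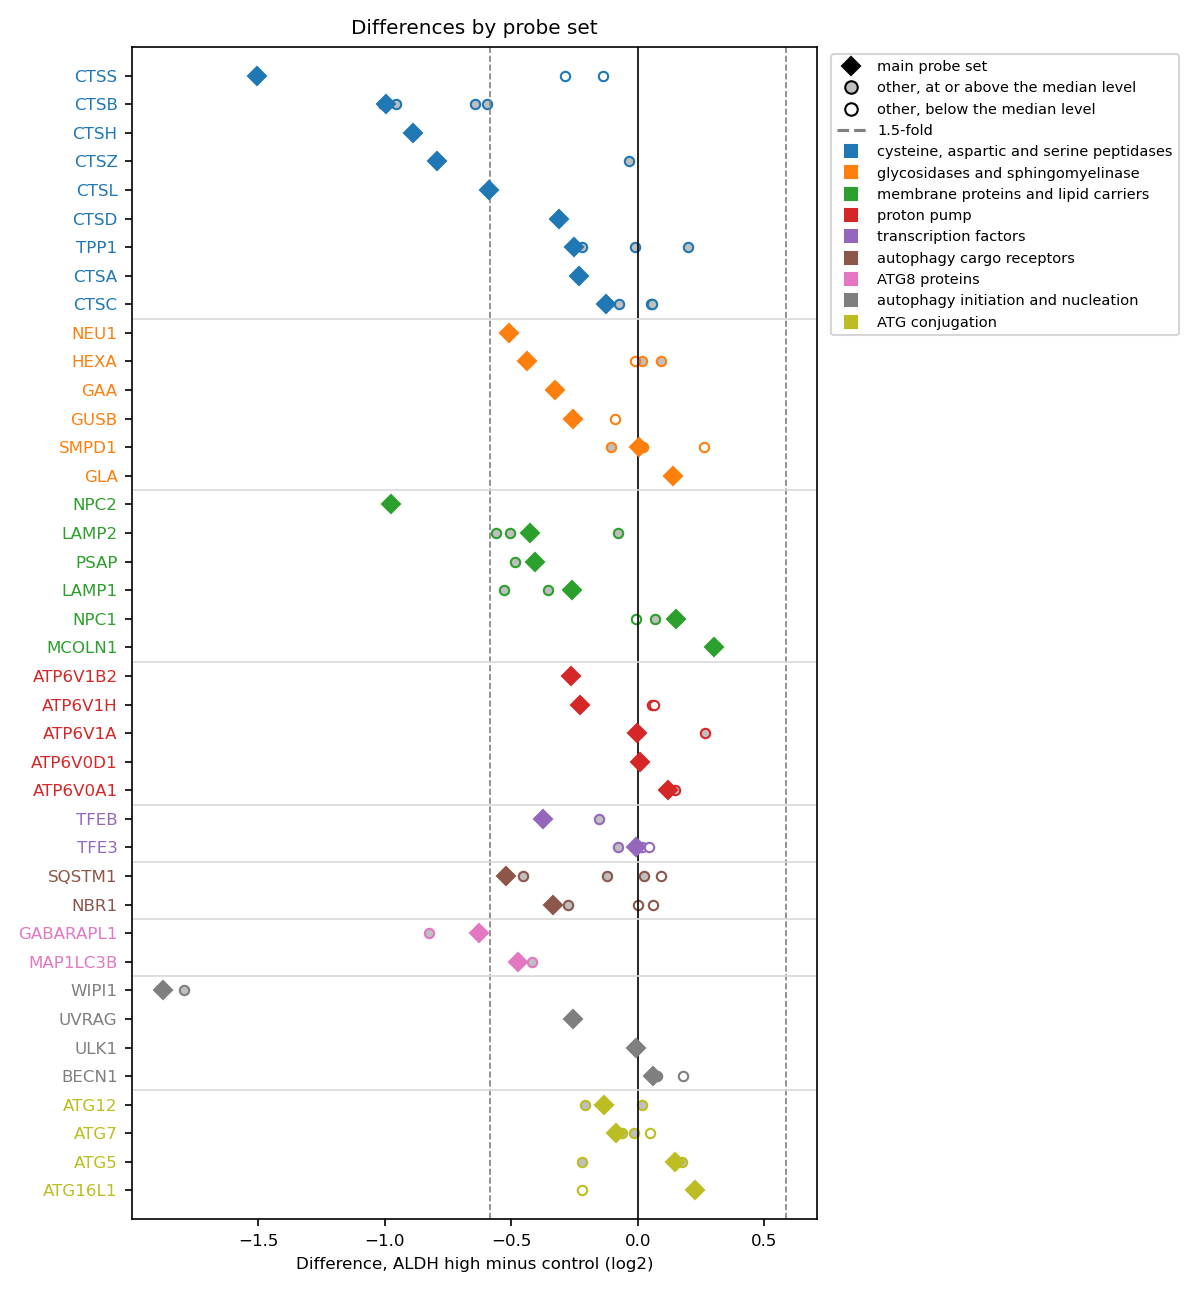
Difference (log2) for each of the 98 probe sets, with the main probe set of a gene as a diamond, other probe sets at or above the median level as grey circles and dimmer ones as white circles; dashed lines mark 1.5-fold. The probe sets of CTSB, WIPI1 and GABARAPL1 all lie past the line, whereas those of CTSS, CTSZ, HEXA and SQSTM1 are spread towards 0.

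Probe sets of one member did not always point the same way. Of 23 members with several probe sets at or above the median level, all of these probe sets were below 0 in 12, all above 0 in 3, and of mixed sign in 8. Among the 81 member probe sets at or above that level, 59 were below 0. The same counts were not made over all genes, so these have no background share beside them.

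Promoters were read for the element that TFEB and TFE3 bind, because most lysosomal members differed in the same direction. The window was the 250 bases before each RefSeq start (GRCh38.p14), and 32 of 41 members had such a window in the table used. A gene with several starts was counted once, if any of its windows held the motif. CACGTG, which reads the same on both strands, was found in 7 of the 32 (21.9%) and in 7.73% of 27305 genes. TCACGTGA, a longer form that contains it, was found in 5 of the 32 (15.6%) and in 1.04% of genes. The sequences below, 30 bases each on the strand of the gene with CACGTG in capitals, show the element with its flanks in 6 of these members, at the copy nearest to the start except in MCOLN1.
GAA: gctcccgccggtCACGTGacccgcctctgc
CTSA: ggcgccggagttCACGTGactcgtacacat
ATP6V0D1: cccccttatggtCACGTGaggcgcttgcgc
MCOLN1: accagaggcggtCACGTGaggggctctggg
CTSD: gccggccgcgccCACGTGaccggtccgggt
NEU1: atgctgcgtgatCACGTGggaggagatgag

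They lie at chr17:80101538-80101567 for GAA (plus strand), chr20:45891298-45891327 for CTSA (plus), chr16:67481199-67481228 for ATP6V0D1 (minus), chr19:7522571-7522600 for MCOLN1 (plus), chr11:1763957-1763986 for CTSD (minus) and chr6:31862930-31862959 for NEU1 (minus). The first base of CACGTG is 31 bases before the start in GAA, 25 in CTSA, 59 in ATP6V0D1, 41 in MCOLN1, 47 in CTSD and 126 in NEU1. For MCOLN1 a further copy lies 14 bases before the start, too close to the edge of the window for its flanks to be shown. LAMP1 had 5 copies in its window, the most among the 32 members with a window, whereas WIPI1, the member with the largest difference, had 0. The windows of both are given whole for comparison, at chr13:113296989-113297238 for LAMP1 (plus) and chr17:68457497-68457746 for WIPI1 (minus), with CACGTG in capitals.
LAMP1: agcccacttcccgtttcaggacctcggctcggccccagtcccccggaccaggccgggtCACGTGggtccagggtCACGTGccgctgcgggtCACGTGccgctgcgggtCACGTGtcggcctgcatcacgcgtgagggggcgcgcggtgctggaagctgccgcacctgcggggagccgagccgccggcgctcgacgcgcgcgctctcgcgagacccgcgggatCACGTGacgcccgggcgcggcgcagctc
WIPI1: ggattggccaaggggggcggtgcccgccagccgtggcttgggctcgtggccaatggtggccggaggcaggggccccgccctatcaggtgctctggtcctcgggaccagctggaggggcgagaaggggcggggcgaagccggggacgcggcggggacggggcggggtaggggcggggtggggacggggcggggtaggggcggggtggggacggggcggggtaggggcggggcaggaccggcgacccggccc

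The 7 members with CACGTG in this window ranged from -0.51 for NEU1 to 0.30 for MCOLN1, with a median of -0.26 and 0 past 1.5-fold. The 24 measured members whose window lacked it had a median of -0.19 and held 6 genes past 1.5-fold lower. Whether the groups with and without CACGTG differ was not tested. CTSB and CTSS, which were also past 1.5-fold, had no window in the table. TGATGCAA, a form of the element bound by ATF4 and CHOP in stress-induced genes (searched on both strands), was found in 0 of the 32 and in 0.967% of genes. A match is a stretch of letters and not a shown binding site, and the absence of a match says only that these letters are not in this window.

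Other genes of the same pathways, in 10 lists also chosen with earlier results of these data known, had a median of -0.11. The lists held 156 genes, of which 146 were measured. Of the 146, 100 (68.5%) were below 0, where 50.3% of all genes were. Of the 146, 12 (8.22%) were over 1.5-fold lower and 1 was higher, against 4.21% and 2.61% of all genes. At or above the median level, where 141 of them lay, those shares were 5.52% and 3.53%. The 25 other acid hydrolases had 22 members below 0 and a median of -0.20. LGMN, the asparaginyl peptidase legumain, was at 9.32 against 10.10 (1.72-fold lower), CTBS, a chitobiase, at 8.83 against 9.52 with a second probe set at -0.96, and FUCA1, the alpha-fucosidase, at 8.67 against 9.30. ARSB, the arylsulfatase that degrades dermatan sulfate, went the other way, at 7.46 against 6.35 (2.15-fold higher) on a probe set that may bind other transcripts. Its second probe set differed by 0.55, and 2 dim ones by 0.26 and -0.07.

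The 17 other proton pump subunits had a median of -0.17, with 13 (76.5%) below 0, where 50.3% of all genes were, and none past 1.5-fold. ATP6V0A2 was at 8.30 against 7.88 and ATP6V1G2 at 5.47 against 5.80. Of 19 other lysosomal membrane proteins, LAMP3, an inducible relative of LAMP1, was 3.16-fold lower (8.02 against 9.68) and SIDT2, a multi-pass protein of the lysosomal membrane, 1.78-fold lower (7.84 against 8.68). The median of that list was -0.10. The 9 genes of lysosomal enzyme sorting, among them the mannose 6-phosphate receptors, were level with a median of -0.01. GGA3, a sorting adaptor, was at 8.03 against 7.69, and NAGPA, which uncovers the mannose 6-phosphate tag, at 7.27 against 6.98.

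Among 21 genes that control TFEB and mTORC1 the median was -0.11. Of these, 3 (14.3%) were over 1.5-fold lower, against 4.21% of all genes and 5.52% of those at or above the median level. DEPTOR, an inhibitor of mTOR, was at 8.03 against 9.43 (2.65-fold lower). RRAGD, a Rag GTPase that places mTORC1 on lysosomes, was at 8.77 against 9.90 (2.19-fold lower), and at 7.63 against 9.10 on the second probe set. FLCN, folliculin, which acts on that GTPase, was at 6.47 against 7.20, but its other 3 probe sets ranged from -0.29 to 0.11.

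The other autophagy lists were mixed. Of 17 other initiation and nucleation genes, ULK2, a kinase related to ULK1, was 1.62-fold lower (6.42 against 7.11) with all 4 probe sets below 0. ATG2B, a lipid transfer protein, was at 7.49 against 7.97, and the median was -0.14. The 11 other ATG8 and conjugation genes had none past 1.5-fold and a median of -0.08. MAP1LC3A was at 7.76 against 8.17, its 3 probe sets ranging from -0.91 to -0.36, and ATG10, the conjugating enzyme for ATG12, at 7.87 against 7.55. Of 11 other cargo receptors 9 (81.8%) lay below 0, where 50.3% of all genes did, and the median was -0.27. BNIP3L, the mitophagy receptor NIX, was 2.13-fold lower (8.83 against 9.91) with a second probe set at -0.88, and CALCOCO2, the receptor NDP52, was 1.52-fold lower (9.41 against 10.01) with a second at -0.69. The 12 fusion genes were level with a median of -0.04, RAB7A, the late endosome GTPase, being at 9.48 against 9.89 and EPG5, a tether, at 8.35 against 8.01.

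**Figure D4:**
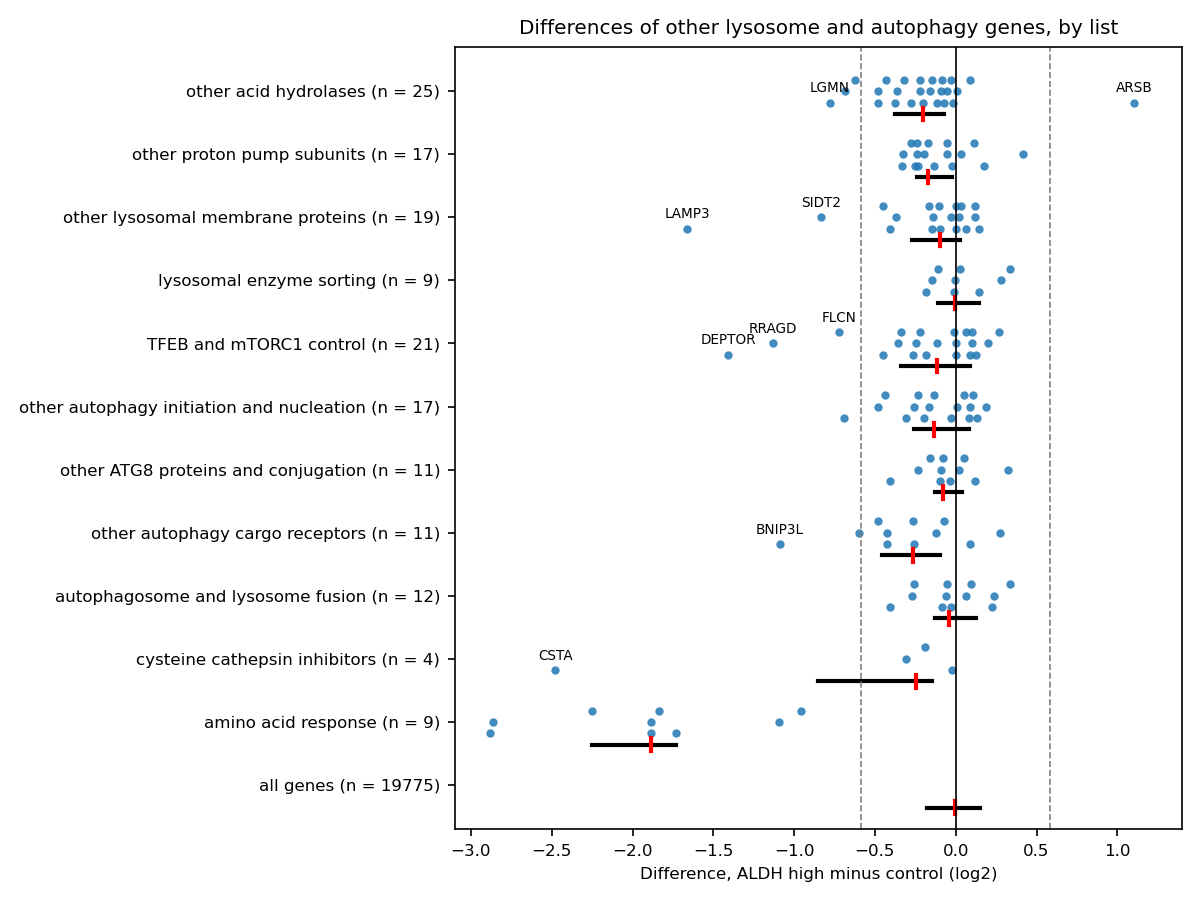
Difference between ALDH high and control (log2) of other lysosome and autophagy genes and of amino acid response genes, by list, with the list median (red tick) and the middle 50% of the values (black bar), above the same bar for all genes; dashed lines mark 1.5-fold. Most lists are centred between -0.27 and 0, single genes such as LAMP3 (-1.66), DEPTOR (-1.41), RRAGD (-1.13) and BNIP3L (-1.09) lie far to the left, and the amino acid response list has a median of -1.89.

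Cystatins inhibit cysteine cathepsins, and all 4 in the list lay below 0, 1 of them past 1.5-fold. Of all genes, 50.3% were below 0 and 4.21% past 1.5-fold lower. CSTA, a cytosolic cystatin, was at 4.99 against 7.47, a difference of -2.48 that rests on an ALDH-high level below the array median. CST3, the secreted cystatin C, was at 9.35 against 9.66. The amino acid response list, known from earlier results of these arrays to be lower, had all 9 genes past 1.5-fold with a median of -1.89. DDIT4, an inhibitor of mTORC1, was at 9.21 against 12.10, TRIB3, a pseudokinase, at 8.86 against 11.72, DDIT3, the transcription factor CHOP, at 8.76 against 11.01, and ATF3, a related factor, at 6.95 against 8.84. No lysosomal or autophagy member differed as much as DDIT4, TRIB3, DDIT3, ATF3 (-1.89) or SESN2 (-1.89), and WIPI1 (-1.88) came nearest. WIPI1 differed more than the rest of that list, CHAC1 (-1.83), CEBPB, ASNS and ATF4 (-0.95). CTSS, CTSB and NPC2 also differed more than ATF4.

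Markers of macrophages and other leukocytes, cells rich in cathepsins, were dim, with 2 of 9 measured genes at or above the median level. Those 2 were ITGAM, at 6.12 against 6.04, and AIF1, at 5.93 against 5.99. PTPRC, the leukocyte antigen CD45, was at 3.56 against 3.34, CD14 at 4.30 against 5.32 and LYZ, lysozyme, at 4.34 against 5.67. CD14 and LYZ, the only 2 past 1.5-fold, were below the median level on both arrays, where a level cannot be told from background. The summed linear level of the 9 markers was 281 in ALDH high and 334 in control, and the median difference was -0.06. Of 10 fibroblast markers 3 were at or above the median level, with summed linear levels of 425 and 486 and a median difference of -0.11. The part of other cells in the lower cathepsin levels was not tested.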

How the data were processed

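Per the submitters' processing notes, the authors made the deposited log2 values with RMA, which includes a background correction, a quantile normalisation across arrays and a robust summary per probe set. The sources used here give neither the RMA version nor the set of arrays that entered it. Quantile normalisation forces both arrays to the same distribution, so a shift of all genes cannot be seen. The table held 54675 probe sets on 2 arrays, of which 62 Affymetrix controls were left out, and no detection calls. Gene symbols came from GEO's platform annotation, where 41097 probe sets had 1 symbol, 1801 several and 11777 none. Through the Entrez ID, 41043 were found in a RefSeq table (GRCh38.p14), which changed 0 symbols.

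For each gene the probe set with the highest mean of both arrays was used, and differences were computed with pandas 2.3.3 in Python 3.11.15. The step was checked on simulated data. A gene was counted past 1.5-fold or 2-fold without a test. The number of arrays limits the precision. Alternatives were the mean or median over probe sets, no shared-target probe sets (IDs ending in _s_at or _x_at), a pseudocount of 32 on linear values, a filter at the median level, another centring and each class left out. The mean over probe sets at or above the median level was added after seeing the data. All members were named. In the other lists genes over 1.5-fold were named, up to 4, and never fewer than the 2 furthest from 0. The members and all lists were chosen with earlier results of these data known.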

Additional observations from a re-analysis of the deposited data

How the results depend on the processing

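No member past 1.5-fold changed sign under the alternatives run, but this says little. Every probe set of these members lay below 0, so combining or dropping probe sets could not turn a sign. CTSH, CTSL, CTSZ and GABARAPL1 had no value without shared-target probe sets. The proton pump median, just below 0, was 0.01 as the mean over probe sets and without shared-target probe sets, and 0.06 as the median over probe sets. Without shared-target probe sets TPP1 (0.20), HEXA (0.09), ATP6V1H (0.07) and NBR1 (0.06) turned from below to above 0. The median difference over all members was -0.26, and it was -0.18 as the mean and -0.16 as the median over all probe sets, -0.12 without shared-target probe sets, -0.31 without the proton pump and -0.29 without the ATG conjugation genes. The hydrolase median of -0.33 was -0.18 without shared-target probe sets. The autophagy median of -0.20 was -0.12 as the mean and -0.13 as the median over all probe sets and -0.068 without shared-target probe sets. The count over 1.5-fold lower went from 8 to 3 without shared-target probe sets, where 9 fewer members were measured and CTSS stood at -0.14 (3.95% of all genes were lower by this much in that setting). It was 6 with a pseudocount (2.74% of all genes), where CTSL (-0.56) and GABARAPL1 (-0.58) ended just short, and 7 as the mean over probe sets (3.06%), where CTSZ was at -0.41. As the median over probe sets it was 6 (3.10%), with CTSZ (-0.41) and CTSS (-0.29) short of it. No setting gave a member over 1.5-fold higher. The count of members below 0, 31 of 40, was 30 as the mean and 27 as the median over all probe sets. Without shared-target probe sets it was 22 of 31. The share of all genes below 0 was not computed in these settings. No paired analysis was possible because each group had 1 array. A level near the array median cannot be told from background, which limits CTSS.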
